A study of Oryzias latipes with 18 samples.

Results

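The apolipoprotein genes of medaka testis were followed library by library. Members were the genes whose name, case ignored, starts with apoa, apoba, apobb, apoc or apoe (apobec genes left out) and whose mean over the 18 libraries was at least 10 normalized reads. The rule found 7 genes of the 22941 in the table, of which 18792 had a mean of at least 10. They are apoeb (ENSORLG00000013986), apoea (ENSORLG00000027981), apoa1b (ENSORLG00000015744), apoa4a (ENSORLG00000009193), apoa2 (ENSORLG00000024993), apoc2 (ENSORLG00000023335) and apoba (ENSORLG00000023119). The remaining gene of the name pattern, apobb.2, lay between 0 and 3.76 normalized reads and stayed out.

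The testes came from a control lineage, with no ancestral bisphenol A (BPA), and from a BPA lineage, whose ancestors met BPA at 10 µg/L during embryonic development 4 generations earlier. Fish of both lineages were kept for 21 days in water with perfluorooctane sulfonate (PFOS), a persistent fluorinated surfactant, at 0, 0.002 (the lower dose) or 0.02 mg/L (the higher dose). Each of the 6 groups had 3 biological replicates. Whether a library is 1 fish or a pool, and which strain was used, is not stated, so p-values measure only the spread between these libraries.

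Apolipoproteins are the protein coats of the particles that carry fat and cholesterol through plasma, lymph and egg yolk. Apolipoprotein B and the A-type proteins are made mainly by liver and intestine, where fat is loaded onto particles before secretion, while apolipoprotein E is also made by macrophages and other cells that hand lipid to their neighbours. In a testis, Sertoli cells engulf the bodies shed by developing sperm and germ cells take up lipid through receptors of the LDL and scavenger families.

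Recovered reads ranged from 23.7 to 47.7 M per library, and normalized totals from 20.2 to 36.9 M. Germ cell genes (15 measured) summed to between 96119 and 158208 normalized reads and Sertoli cell genes (10 measured) to between 31201 and 69140 in 17 libraries, so markers of the labelled tissue were present. An exception was the library labelled control lineage PFOS 0.002 replicate 2. It held 57122 and 8251 for those lists, and 944197 for 11 oocyte and egg coat genes against 521 to 7849 elsewhere. Each of the 3 unexposed control lineage libraries was also the highest of all in markers of another tissue. Replicate 1 led 7 of 10 enterocyte genes (summed level 17358, with 391.6 to 9311 elsewhere), replicate 2 led 9 of 10 exocrine pancreas genes (4864, with 128 to 1902 elsewhere) and replicate 3 led 3 of 7 kidney tubule genes (34830, with 380 to 1333 elsewhere). Over all genes tested they were the highest in 8.54%, 5.32% and 6.84%. Replicate 3 was also high in the enterocyte list, with a sum of 9311 and the lead in 2 of the 10 genes. The next highest enterocyte sum was 1699, in BPA lineage replicate 3 at 0.02 mg/L. Unexposed control lineage replicate 3 further led 6 of 14 macrophage genes, with a sum of 7797. Only the library labelled control lineage PFOS 0.002 replicate 2 had a higher macrophage sum, at 91966. Lists hold genes with a mean of at least 10 over all 18 libraries, so a gene could enter through the library that led it. An example was rbp2a of the enterocyte list, with 4289 normalized reads in replicate 1 and at most 10.5 elsewhere. Results are therefore given for all 18 libraries, for 17 after dropping the library labelled control lineage PFOS 0.002 replicate 2, and for the 16 that also lack unexposed control lineage replicate 1, the last chosen after the data were seen.

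The E-type gene apoeb codes for an apolipoprotein that binds receptors of the LDL family, and its lowest library still held 267 normalized reads. In the unexposed control lineage apoeb measured 9510, 4322 and 5917 normalized reads in replicates 1 to 3. Under the lower dose the values of that lineage were 2012, 267 and 540, and under the higher dose 1424, 2265 and 812. All 3 unexposed libraries thus lay above all 6 PFOS libraries of the lineage, also without replicate 1.

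In the BPA lineage apoeb measured 2797, 1807 and 1092 normalized reads without PFOS, 1768, 1805 and 1979 at the lower dose, and 1781, 2372 and 4529 at the higher dose. These 3 groups overlapped one another. The unexposed BPA libraries lay below all unexposed control libraries, whereas BPA replicate 3 at the higher dose reached into their range. Group means ± SD (n = 3) ran from 6583 ± 2658 in the unexposed control lineage through 2894 ± 1446 (BPA, 0.02 mg/L), 1898 ± 856 (BPA, no PFOS), 1850 ± 113 (BPA, 0.002 mg/L) and 1500 ± 730 (control, 0.02 mg/L) to 940 ± 938 (control, 0.002 mg/L). Every neighbouring pair in that order had overlapping libraries.

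**Figure D1:**
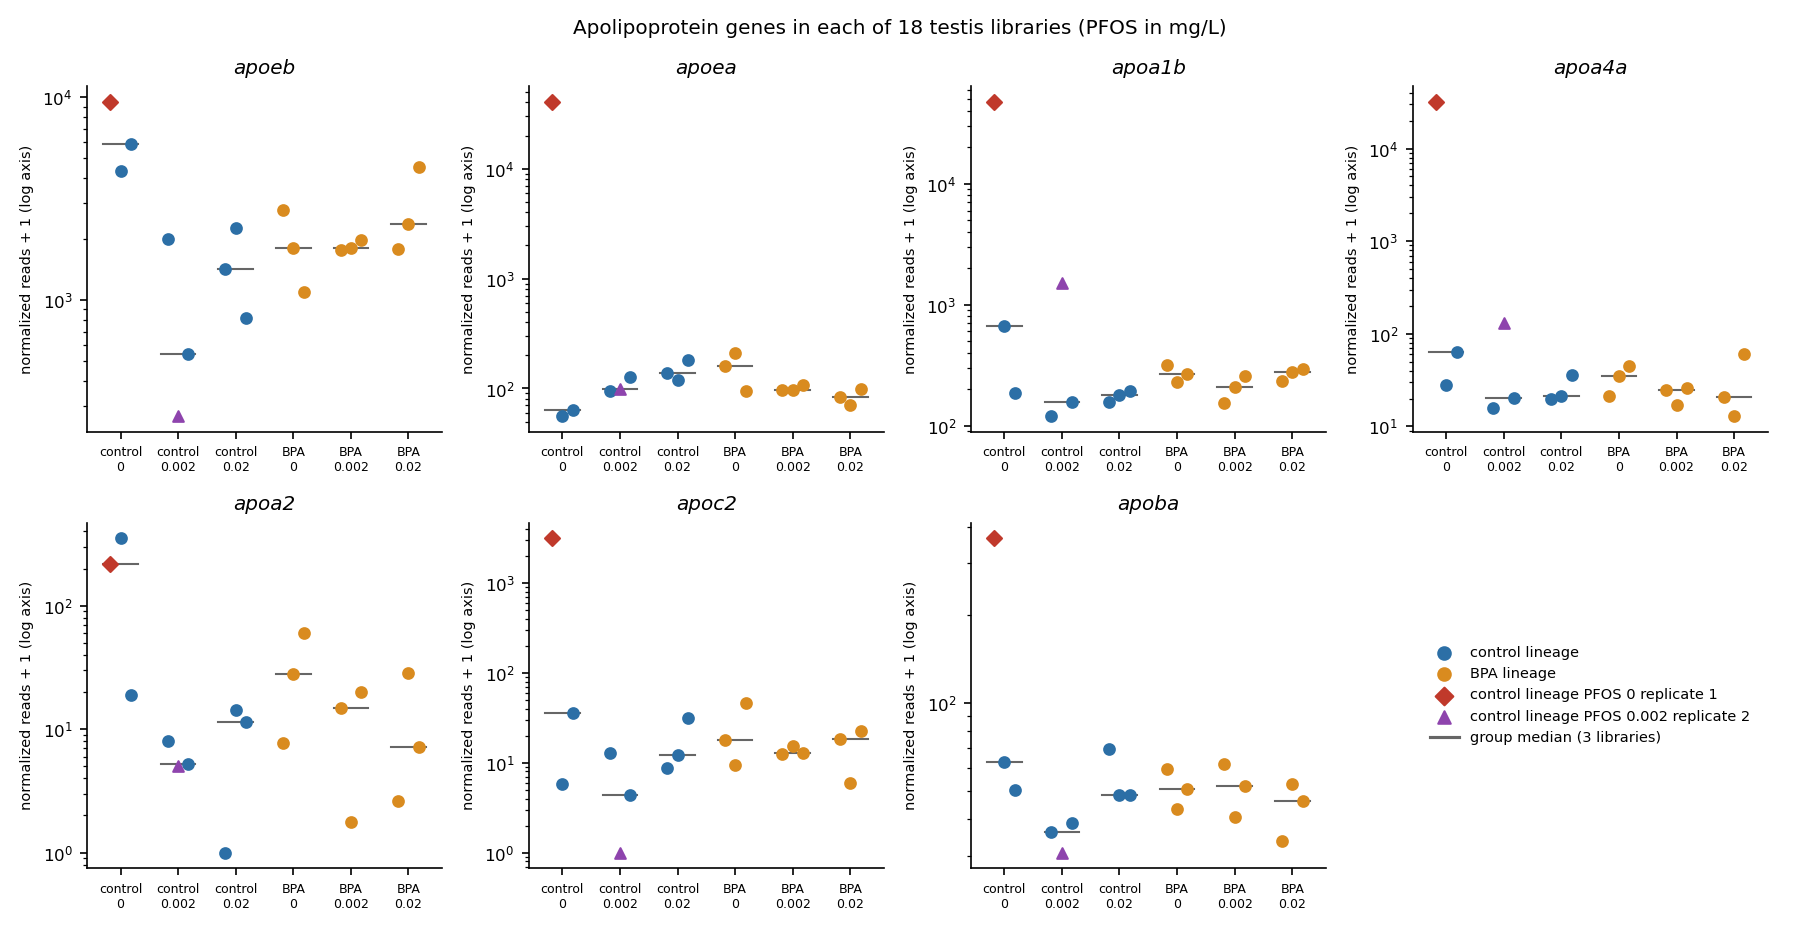
Normalized reads plus 1 (log axis) of the 7 apolipoprotein genes in each of the 18 libraries, with groups by lineage and PFOS dose on the x axis and a line at each group's median. Unexposed control lineage replicate 1 (red diamond) stands far above the rest in apoea, apoa1b, apoa4a and apoc2, whereas apoeb is high in all 3 unexposed control libraries.

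A different pattern held for apoa4a, which codes for an A-type apolipoprotein of fat-loaded intestinal particles. It measured 32012 normalized reads in unexposed control lineage replicate 1, and 26.7 and 62.4 in replicates 2 and 3 of the same group. Control libraries had 14.8, 130 and 19.3 at the lower dose and 18.6, 20.5 and 34.7 at the higher dose. In the BPA lineage apoa4a had 20.2, 33.8 and 43.6 without PFOS, 23.6, 15.99 and 24.8 at the lower dose, and 20.0, 11.9 and 59.7 at the higher dose. A single library held 98.2% of the reads of apoa4a summed over the 18, at 247 times the next highest. The other unexposed control libraries lay inside the range of the 15 libraries of the remaining groups, 11.9 to 130.

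The gene apoa1b codes for a teleost form of apolipoprotein A-I, the main protein of high-density particles. It measured 47670, 668 and 184 normalized reads in the unexposed control lineage, 119, 1503 and 157 at the lower dose and 155, 179 and 194 at the higher dose. The BPA lineage had 318, 230 and 266 without PFOS, 152, 209 and 255 at the lower dose, and 231, 277 and 292 at the higher dose. The same library, replicate 1 of the unexposed control lineage, was 31.7 times the next highest. That next highest was the library labelled control lineage PFOS 0.002 replicate 2, for apoa1b as for apoa4a.

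The paralog apoea had 40635 normalized reads in unexposed control lineage replicate 1, 196 times the next highest, but 55.0 and 63.0 in replicates 2 and 3, the lowest values among the 18 libraries. Control libraries held 93.5, 97.2 and 127 reads of apoea at the lower dose and 136, 119 and 180 at the higher dose. The BPA lineage had 159, 208 and 93.3 without PFOS, 96.7, 95.2 and 106 at the lower dose, and 83.1, 70.1 and 97.8 at the higher dose. The unexposed control lineage thus held both the highest value of apoea and the pair of lowest ones. Since apoea and apoeb are paralogs and the read counter is not given, some reads may have been placed on the wrong copy.

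For apoc2, the cofactor that switches on lipoprotein lipase, unexposed control lineage replicate 1 had 3153 normalized reads, 69.8 times the next highest, and replicates 2 and 3 had 4.86 and 34.9. PFOS libraries of the control lineage had 11.9, 0 and 3.35 at the lower dose and 7.83, 11.3 and 30.2 at the higher dose. The value of 0 stands for no read of apoc2, which allows up to 4.05 normalized reads (3 reads, counting error only). BPA libraries had 16.9, 8.45 and 45.1 without PFOS, 11.4, 14.5 and 11.7 at the lower dose, and 17.6, 4.91 and 21.6 at the higher dose. Outside replicate 1 the unexposed control libraries lay within the range of the rest.

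The 2 members with a mean under 100 were apoa2 and apoba. For apoa2, a second protein of high-density particles, the values were 216, 351 and 17.7 in the unexposed control lineage, 4.05 to 7.03 at the lower dose, 0 to 13.4 at the higher dose and 0.761 to 59.4 in the 9 BPA libraries. It was thus the only member whose highest library was not replicate 1: replicate 2, the library that led the exocrine pancreas genes, was higher. For apoba, a B-type scaffold protein of fat-rich particles, replicate 1 had 365 normalized reads, 5.32 times the next highest, and all other libraries lay between 29.7 and 68.5.

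Unexposed control lineage replicate 1 was the highest of the 18 libraries in 6 of the 7 members, against 8.54% of all genes tested. It was at least 10 times every other library in 4 members, apoa4a, apoea, apoc2 and apoa1b, against 63 genes or 0.335% of all tested. Named here after their values were seen, 5 genes of the assembly, receptor and enterocyte lists were also far higher in that library than elsewhere. For the microsomal transfer protein mttp, which loads lipid onto apolipoprotein B, it had 709 normalized reads against at most 27.1 elsewhere, and for mogat2, which rebuilds triglyceride in the gut, 422 against at most 16.6. The fatty acid transporter cd36 had 1722 against at most 60.2, the retinol binder rbp2a 4289 against at most 10.5 and the peptide transporter slc15a1b 1913 against at most 73.2.

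By list, replicate 1 was the highest library in 8 of 15 genes of lipoprotein assembly and secretion, 7 of 22 regulators of apolipoprotein genes and 5 of 16 receptors and uptake genes. Other libraries led as many of the last 2 lists: replicate 3 of the same group was the highest in 7 of 22 regulators, and the library labelled control lineage PFOS 0.002 replicate 2 in 5 of 16 receptors and uptake genes. The latter was the highest in 28.2% of all genes tested, so its 5 of 16 (31.25%) lay near its background. That background was lower in the unexposed control lineage, at 6.84% in replicate 3 and 8.54% in replicate 1. Unexposed control lineage replicate 1 was the highest in 0 of 14 liver plasma protein and hepatocyte genes and 0 of 10 exocrine pancreas genes. It was also the highest in 0 of 6 lipases and lipid transfer genes and 0 of 8 further apolipoproteins (apod, apof, apol, apoo and clu types). Its summed level of the liver list was 3600 normalized reads, inside the range of 482 to 5000 in the other libraries, and the liver fatty acid binder fabp10a had 31.8 there and 173 in replicate 3. Replicate 1 was the highest in 3 of 10 Sertoli cell genes, and their sum of 69140 stood above the 8251 to 61849 of the other libraries. Macrophage genes summed to 5054 in replicate 1 and to 2658 to 7797 elsewhere, apart from 91966 in the library labelled control lineage PFOS 0.002 replicate 2. Of the 14 macrophage genes that library was at least 10 times all others in 1. It was the lowest of 18 in 7 of them, beside 38.5% of all genes. No enterocyte gene (0 of 10) was at 0 in replicate 1, against 0 to 2 of 10 in the other libraries. The part of enterocyte RNA in the member values was not tested.

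**Figure D2:**
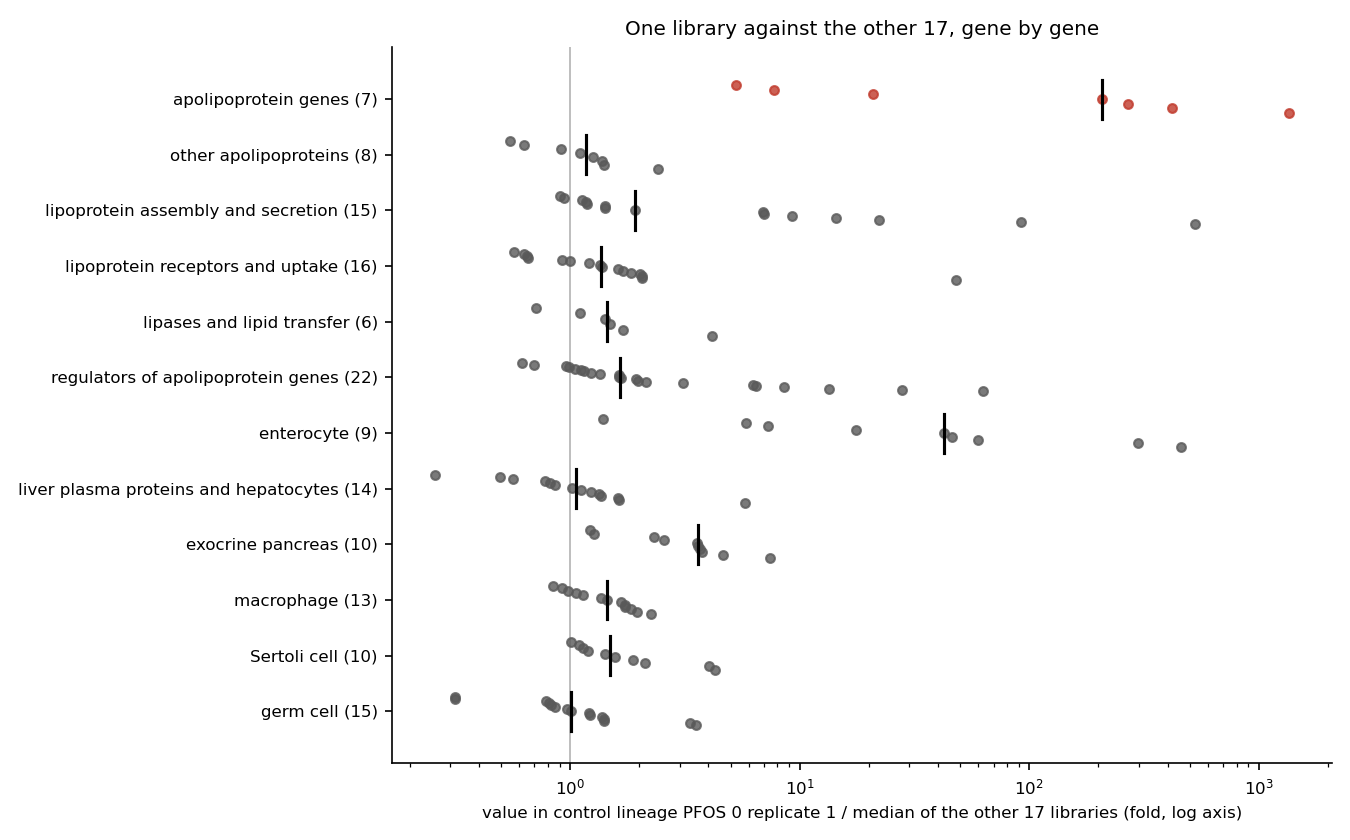
Each point is 1 gene's value in unexposed control lineage replicate 1 divided by its median over the other 17 libraries (log axis), by list, with the number of genes plotted in brackets and a bar at the list's median. Genes at 0 in replicate 1 or with a median of 0 cannot be drawn. The apolipoprotein and enterocyte genes reach far to the right, while most liver, macrophage, Sertoli and germ cell genes lie closer to 1.

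The library labelled control lineage PFOS 0.002 replicate 2 was not the highest in any member and at least 10 times all others in 0 of 7, against 443 genes or 2.36% of those tested. It was the lowest of 18 in 3 members, apoeb, apoba and apoc2, against 38.5% of all genes. It was the second highest in apoa4a and apoa1b. Of the Sertoli cell genes it was the lowest in 9 of 10. Its apoeb value of 267 normalized reads was 0.141 times the median of the other 16 libraries counted without replicate 1 of the unexposed control lineage.

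Differences between groups were tested with limma on log2(normalized reads + 1) across all 18792 genes, with Benjamini-Hochberg adjustment and a threshold of 0.05. Differences are on that log2 scale, with standard errors, and they understate the change of low genes. In the control lineage apoeb was the only member to pass at the lower dose. It fell by 3.23 ± 0.59 (adjusted p = 0.0208), with all 3 PFOS libraries below all 3 unexposed ones. The count of 1 of 7 members stands beside 7.85% of all genes called in this comparison. The median difference of the members was -3.23 and that of all genes -0.15. The other 6 members had differences of -4.51 to -1.58, none past the threshold.

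The call did not hold without some of the unexposed libraries. With 17 libraries the difference of apoeb was -2.58 ± 0.56 (limma, adjusted p = 0.0291), again 1 of 7 members beside 4.59% of all genes. With 16 libraries it was -2.28 ± 0.60 (adjusted p = 0.106), and 0 of 7 members passed limma, with 4 at an unadjusted p under 0.05, beside 0.0213% of all genes. With only unexposed replicate 1 left out the adjusted limma p of apoeb was 0.110 and with only replicate 3 left out 0.0735. On recovered reads edgeR called 7 of 7 members lower (adjusted p from 0.0273 for apoeb to 0.0452 for apoa1b), beside 16.6% of all genes. DESeq2 called apoeb, apoba and apoa2, the 3 members for which it gave an adjusted p, beside 26.7% of all genes, and gave none for apoa4a, apoa1b, apoea and apoc2.

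In the control lineage at the higher dose the difference of apoeb was -2.18 ± 0.59 (limma, adjusted p = 0.114) and 0 of 7 members passed with 18 libraries, beside 0.0692% of all genes. Unadjusted limma p-values under 0.05 were found for 4 members, and 0 were called by edgeR, whereas DESeq2 called apoeb and apoa2 beside 7.15% of all genes. With 17 libraries apoeb fell by 2.18 ± 0.50 (adjusted p = 0.0196) and apoa2 fell by 4.37 ± 1.30 (adjusted p = 0.0402), which is 2 of 7 members beside 12.8% of all genes. Of the unexposed libraries, replicates 1 and 2 were high in apoa2, at 216 and 351 normalized reads, and replicate 3 was near the PFOS libraries. With 16 libraries 0 of 7 passed limma, beside 0.447% of all genes, and 4 had an unadjusted p under 0.05. Among these apoeb was at -1.87 ± 0.55 (adjusted p = 0.0883) and apoa2 at -3.89 ± 1.48 (adjusted p = 0.136). The lowest adjusted p, 0.0849, was that of apoea, which was higher under PFOS, at 1.27.

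In the BPA lineage PFOS gave no member call. At the lower dose the differences ran from -1.56 to 0.06 and at the higher dose from -1.55 to 0.60. In both comparisons 0 of 7 members passed limma with 18 and with 17 libraries, with 0 members at an unadjusted p under 0.05 in 18, and edgeR called 0 of 7 and DESeq2 0 of the 3 with an adjusted p. The shares of all genes called by limma were 0% and 0% with 18 libraries and 0% and 0.41% with 17. For apoeb the difference at the higher dose was 0.60 (limma, adjusted p = 0.840), with replicate 3, at 4529 normalized reads, above the unexposed range and the other libraries inside it.

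Between the lineages without PFOS, the difference of apoeb (BPA minus control) was -1.82 ± 0.59 (limma, adjusted p = 0.150), and 0 of 7 members passed with 18 libraries beside 0.0213% of all genes. Only apoeb had an unadjusted p under 0.05. By DESeq2 it was called, as 1 member beside 7.7% of all genes, and by edgeR 0 members were. With 17 libraries apoeb passed (SE 0.50, adjusted p = 0.0346), 1 of 7 members beside 10.3% of all genes. With 16 libraries 0 of 7 passed limma beside 1.55% of all genes, 2 had an unadjusted p under 0.05, and apoeb was at -1.52 ± 0.55 (adjusted p = 0.141). At the lower dose the lineage differences of the members ran from -0.65 to 1.81 and at the higher dose from -0.78 to 0.96. In both, 0 of 7 passed limma and edgeR and 0 of the 3 with an adjusted p passed DESeq2, with 1 and 0 members at an unadjusted limma p under 0.05, and limma called 0% and 0.016% of all genes with 18 libraries and 0% and 0.0213% with 17.

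The interaction asks whether the PFOS difference of the BPA lineage departs from that of the control lineage. All 7 members had positive interactions with 18 libraries, at the lower dose (1.58 to 3.95) and at the higher dose (0.73 to 3.62). Both interactions share the unexposed control libraries with the comparisons above, so their direction is no separate evidence. For the lower dose 0 of 7 members passed limma, beside 0% of all genes with 18 libraries, 0.899% with 17 and 0% with 16. In the same comparison only apoeb had an unadjusted p under 0.05 with 18 libraries, and 2 members had one with 16. With 18 apoeb was also called by DESeq2, as 1 member beside 10.4% of all genes, while edgeR called 0. For the higher dose 0 of 7 passed with 18 libraries beside 1.39% of all genes, with 1 member at an unadjusted p under 0.05, edgeR at 0 and DESeq2 calling apoeb beside 9.29% of all genes.

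With 17 libraries the interaction of apoeb at the higher dose was 2.78 ± 0.71 (limma, adjusted p = 0.0200), 1 of 7 members beside 14.2% of all genes. With 16 libraries apoeb was at 2.47 ± 0.74 (adjusted p = 0.0566), and the 1 member called, beside 7.39% of all genes, was apoea at -2.07 ± 0.50 (adjusted p = 0.0253). With replicate 1 of the unexposed control lineage in the fit the same interaction of apoea was 1.07 (adjusted p = 0.860 with 18 libraries), so 1 library turned its sign. TMM scaling moved the median of all genes in this comparison from -0.10 to 0.02, and gave apoeb 2.90.

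**Figure D3:**
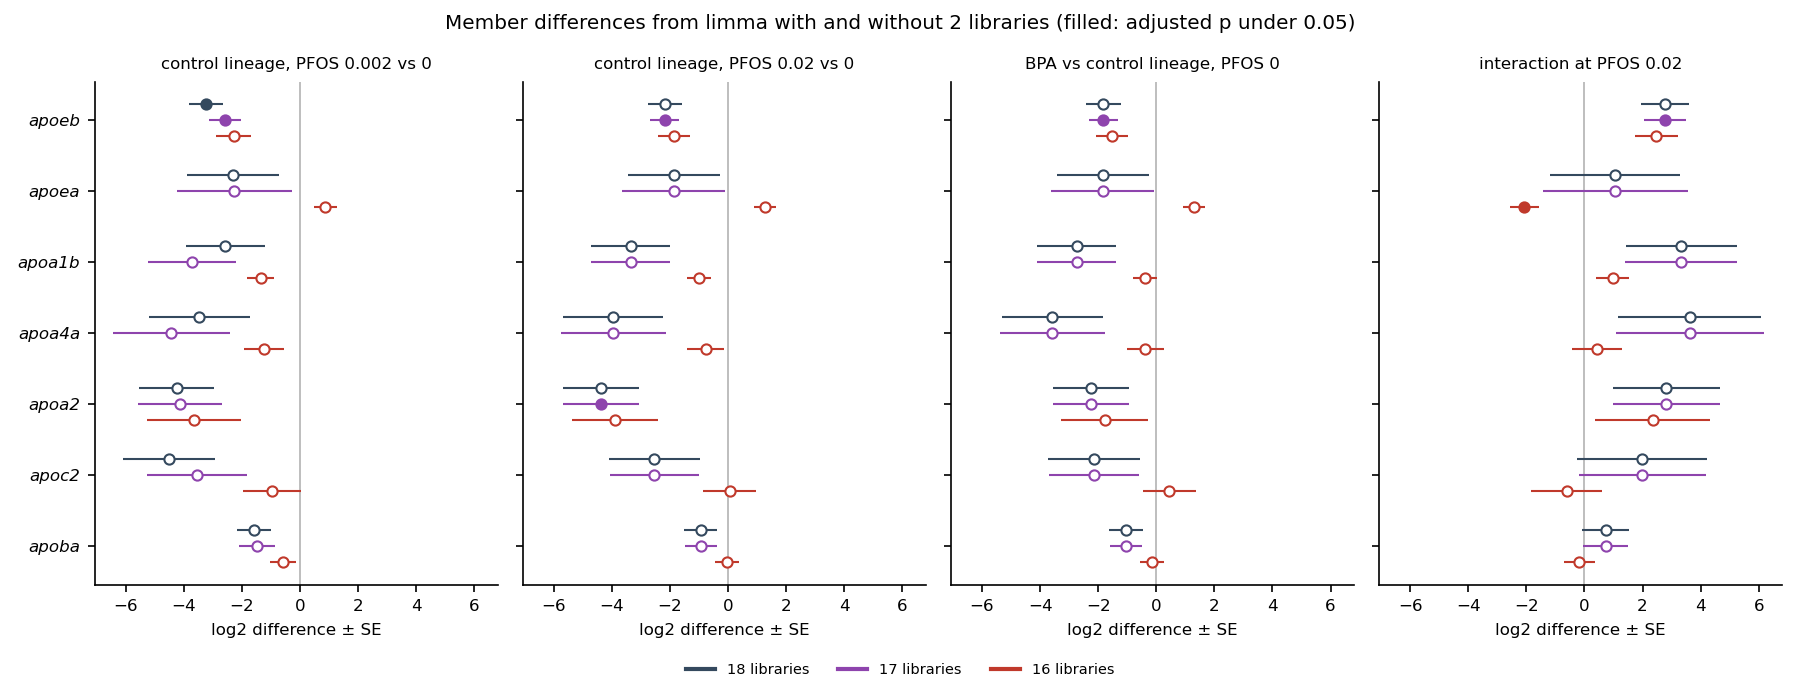
Differences of the 7 members in log2(normalized reads + 1) with standard errors, from limma with 18, 17 and 16 libraries, in 4 comparisons that use the unexposed control lineage (filled points passed the threshold of 0.05). apoeb keeps its side of 0 in every fit shown, while apoea crosses 0 when unexposed control lineage replicate 1 is left out.

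With 16 libraries the differences of several members were smaller or of the other sign. For apoea the difference at the lower dose in the control lineage went from -2.31 with 18 libraries to 0.88 with 16, that at the higher dose from -1.87 to 1.27 and that between the lineages without PFOS from -1.85 to 1.29. None of these 16-library values passed the threshold. For apoa4a the difference at the lower dose went from -3.47 to -1.23, for apoa1b from -2.57 to -1.36 and for apoc2 from -4.51 to -0.95. With only replicate 1 of the unexposed control lineage left out the same differences were -0.27 for apoa4a, -0.20 for apoa1b, -1.92 for apoc2 and 0.82 for apoea.

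Outside replicate 1 the unexposed control libraries were high in apoeb and low in its paralog apoea. Replicates 2 and 3 had high apoeb values, 4322 and 5917 normalized reads, exceeded among the other 15 libraries only by 4529 in BPA lineage replicate 3 at the higher dose over the former. They had the lowest apoea values, 55.0 and 63.0. Over the 16 libraries the correlation of log2(normalized reads + 1) between them was -0.54 (Spearman -0.40), against 0.38 over all 18. It is a description over libraries that share groups and normalization, and those 2 libraries lie at one end of it.

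**Figure D4:**
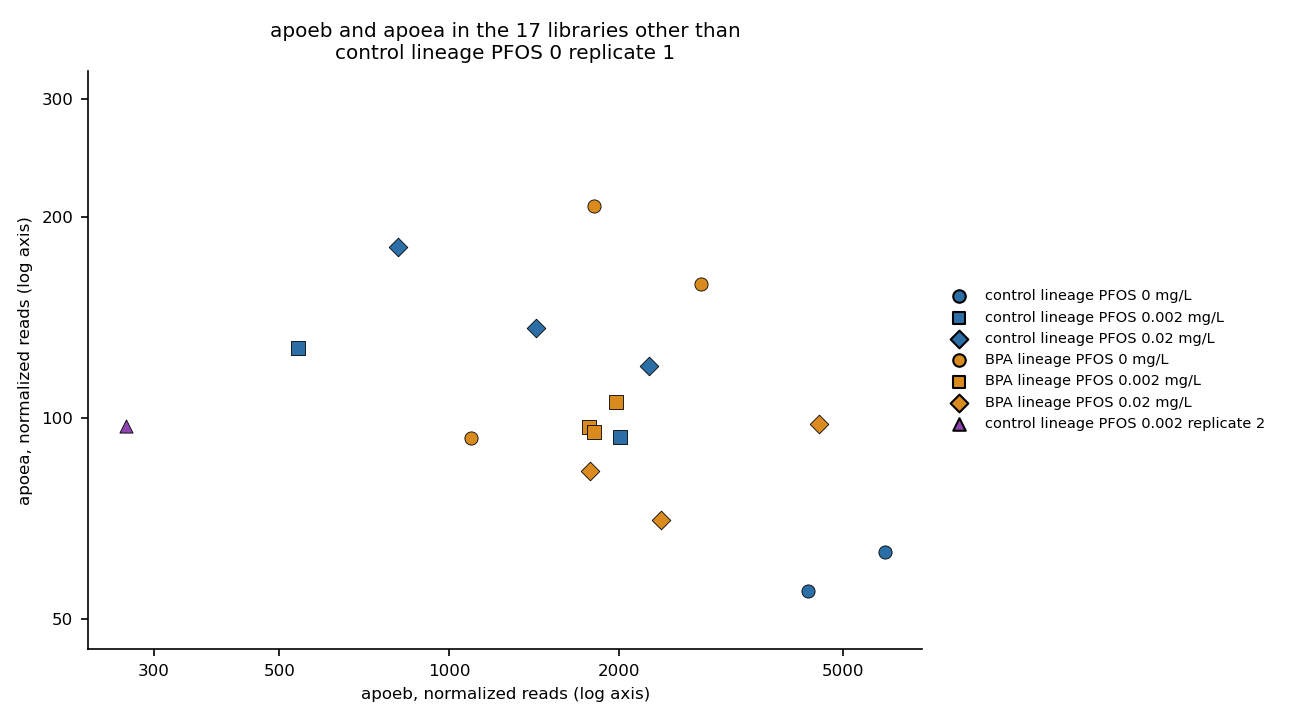
apoea against apoeb in normalized reads (log axes) for the 17 libraries other than unexposed control lineage replicate 1, by group. The remaining unexposed control libraries lie at the lower right, with high apoeb and the lowest apoea.

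Over the 21 pairs of members the Pearson correlation ran from 0.33 to 0.94 with 18 libraries and from -0.54 to 0.64 with 16. That of apoa4a with apoa1b was 0.94 and 0.20 in turn, and that of apoa4a with apoea 0.91 and -0.02. The pairs with the largest correlation over 16 libraries were apoa4a with apoc2 at 0.64 and apoa1b with apoa2 at 0.63. Fewer cells of a type and less RNA per cell cannot be told apart in these bulk samples.

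Among named genes with a mean of at least 50, the 5 whose log2 pattern over the 18 libraries was most like that of apoeb were perp (Pearson r = 0.925, a desmosome-associated membrane protein), eif2b1 (0.895, a subunit of a translation initiation factor), ctsk (0.893, the lysosomal protease cathepsin K), cldn11a (0.893, the tight junction protein of Sertoli cells) and MPV17L (0.886). Over 16 libraries these were 0.836, 0.845, 0.791, 0.798 and 0.838. cldn11a measured 3067, 2402 and 3347 normalized reads in the unexposed control lineage and 60.8 to 1396 elsewhere, so all 3 unexposed control libraries lay above the other 15.

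The nearest genes to apoa4a were the chitinase gene chia.3 (0.960), bco1l (0.922, of the carotenoid-cleaving oxygenase family), si:ch211-214p16.3 (0.922), rbp2a (0.904) and aqp10a (0.887, a water and glycerol channel). Over 16 libraries the correlations were lower, at 0.675, 0.569, 0.203, 0.236 and -0.130. chia.3 measured 46885 normalized reads in unexposed control lineage replicate 1 and at most 18.8 elsewhere. Outside that library bco1l was at most 11.5, rbp2a 10.5 and aqp10a 4.0. These genes and chia.3 thus met the limit on mean only through replicate 1, so their 18-library correlations and ranks rest on that library.

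In the control lineage at the lower dose 3 of 22 regulators were lower and 0 higher (list median -1.28, all genes -0.15), beside 7.85% of all genes, with 2 lower from 17 libraries and 0 from 16. The nuclear receptor hnf4a, a driver of apolipoprotein genes in mammalian liver and gut, measured 472, 27.5 and 83.6 normalized reads in the unexposed control lineage and 10.5, 2.7 and 6.70 at the lower dose, a fall of 3.92 ± 0.79 (limma, adjusted p = 0.0232). Replicate 1 was the highest of these, and with 16 libraries the difference of hnf4a was -2.38 (adjusted p = 0.114). The retinoid X receptor gene rxrbb fell by 1.33 ± 0.36 (limma, adjusted p = 0.0406). It did not pass with 17 libraries (-1.01, adjusted p = 0.0771) or with 16 (-0.94, adjusted p = 0.197). At the higher dose the count was 0 of 22 with 18 libraries, 6 lower with 17 and 0 with 16. Beside these counts limma called 0.0692%, 12.8% and 0.447% of all genes in turn. At the lower dose the shares of all genes were 4.59% with 17 libraries and 0.0213% with 16. The same shares stand beside the counts of the control lineage in the lists below.

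Partner of many lipid-sensing receptors, rxrbb differed between the lineages without PFOS by -1.74 (limma, adjusted p = 0.0635 with 18 libraries, 0.00463 with 17 and 0.0352 with 16). It had 1499, 1224 and 1363 normalized reads in the unexposed control lineage and 366, 325 and 564 in the unexposed BPA lineage, against 1107, 1355 and 1279 in the BPA lineage at the higher dose. Its interaction at the higher dose was 3.07 ± 0.51 with 18 libraries (limma, adjusted p = 0.0218), and it passed with 17 (adjusted p = 0.00117) and with 16 (adjusted p = 0.00522). From 17 and from 16 libraries 3 of 22 regulators passed in that comparison, beside 14.2% and 7.39% of all genes, with ppard, a fatty acid sensor, at 1.39 and srebf1, an activator of lipid synthesis genes, at 2.62 in the former. The list median was 0.53 with 17 libraries and that of all genes -0.10.

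Among 6 lipases and lipid transfer genes, lcat (which esterifies cholesterol on high-density particles) and lpl (the lipase that apoc2 activates) fell at the lower dose in the control lineage, by 3.62 ± 0.78 (limma, adjusted p = 0.0252) and 2.21 ± 0.53 (adjusted p = 0.0333). The list median was -1.17 and that of all genes -0.15. For lcat the values were 119.7, 69.6 and 138.6 normalized reads without PFOS and 16.9, 1.35 and 14.2 at that dose, with no overlap. With 17 libraries lcat alone passed at the lower dose, and with 16 none of the 6. At the higher dose lcat fell by 2.26 ± 0.61 with 17 libraries (limma, adjusted p = 0.0277). It did not pass there with 18 (adjusted p = 0.154) or with 16 (adjusted p = 0.1).

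Of 16 receptors and uptake genes, the scavenger receptor gene stab1 fell at the lower dose by 2.07 ± 0.52 (limma, adjusted p = 0.0360) with 18 libraries and by 1.32 ± 0.37 (adjusted p = 0.0489) with 17, and 0 passed with 16. The list median was -0.28. At the higher dose 0 of 16 passed with 18 libraries, while with 17 the LDL receptor gene ldlrb fell by 1.29 ± 0.31 (adjusted p = 0.0204) and vldlr, the yolk and triglyceride-rich particle receptor, rose by 0.75 ± 0.23 (adjusted p = 0.0454), and 0 passed with 16. None of the 15 assembly and secretion genes passed at the lower dose with 18 libraries (list median -0.08), and with 17 only mttp passed at the higher dose, at -4.30 ± 1.23 (adjusted p = 0.0352). Without PFOS mttp had 709, 10.5 and 13.2 normalized reads in the control lineage, with replicate 1 alone high, and with 16 libraries the difference of mttp was -2.37 (adjusted p = 0.144).

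Among 8 further apolipoprotein genes, 1 of the 2 genes named apodb (ENSORLG00000013153), a lipid-binding lipocalin, fell at the lower dose in the control lineage by 3.15 ± 0.63 (limma, adjusted p = 0.0232). It measured 1175, 1573 and 822 normalized reads without PFOS and 263, 59.4 and 137 at that dose, with no overlap. The difference was -2.59 with 17 libraries (adjusted p = 0.0388) and -2.58 with 16 (adjusted p = 0.115). At the higher dose this apodb gene fell by 1.87 ± 0.56 with 17 libraries (limma, adjusted p = 0.0419). It did not pass there with 18 (adjusted p = 0.148) or with 16 (adjusted p = 0.120). None of the 4 cholesterol efflux genes passed at either dose in the control lineage, and with 17 libraries abcg1, a cholesterol exporter, had an interaction of -1.63 ± 0.42 at the higher dose (limma, adjusted p = 0.0192). It did not pass with 18 libraries (adjusted p = 0.275) or with 16 (-1.33, adjusted p = 0.0551).

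Beside these falls stood other marker lists of the unexposed control lineage. The ranges given here leave out the library labelled control lineage PFOS 0.002 replicate 2. It held 482 normalized reads for the liver list, 91966 for macrophage, 8251 for Sertoli cell and 128 for exocrine pancreas genes. Its sums were 391.6 for enterocyte and 914 for kidney tubule genes. Despite its macrophage sum it was the lowest of 18 in 7 of 14 macrophage genes, beside 38.5% of all genes. For oocyte and egg coat genes it held 944197. Liver plasma protein and hepatocyte genes (14 measured) summed to 2877 to 4196 normalized reads in the unexposed control lineage, to 1063 to 2492 in the remaining control libraries at the lower dose and to 1325 to 1834 at the higher dose, with no overlap between the unexposed and the PFOS libraries. Macrophage genes (14 measured) summed to 4380 to 7797 normalized reads there, to 2658 to 2994 at the lower dose and to 3312 to 3530 at the higher dose, over the same libraries. Sertoli cell genes summed to 51924 to 69140, 31201 to 52048 and 36609 to 56765 in the same groups. Exocrine pancreas genes summed to 1155 to 4864, 224 to 774 and 377 to 417. The sum of germ cell genes went the other way, at 96119 to 127343, 137349 to 158208 and 129768 to 135703, with no overlap between the unexposed and the remaining PFOS libraries. The PFOS library left out held 57122, below the unexposed range. Single germ cell genes did not all follow the sum. At the lower dose id4 fell by 3.12 (limma, adjusted p = 0.0240 with 18 libraries, 0.0320 with 17 and 0.108 with 16). With 17 libraries at the higher dose id4 fell by 2.15 and sycp1 by 1.81, while ddx4 rose by 0.76. None of these 3 passed there with 18 or with 16. Oocyte and egg coat genes summed to 521 to 689, 675 to 902 and 1131 to 7849. In the BPA lineage the liver list summed to 3402 to 4972 without PFOS, 1794 to 3086 at the lower dose and 2555 to 5000 at the higher dose. The unexposed BPA libraries thus also lay above those at the lower dose, while apoeb overlapped between these groups. The part of these lists in the apoeb, apoa2 and hnf4a differences was not tested.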

How the data were processed

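Testis RNA of 18 libraries was sequenced. Each signal value the authors deposited is a read count per gene, scaled by the size factor of its library. Per the labels' protocols, a Zymo Quick RNA/DNA kit was used for extraction and NEBNext Ultra II RNA for library preparation, at Novogene. Tools named in the submitters' processing notes are DESeq2 1.34.0, STAR 2.7.7a and fastp 0.23.2. Which genome build, annotation, counter and strand setting applied is not given in the sources used here. Close paralogs and overlapping genes are therefore uncertain.

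Dividing by the step of each library gave whole reads for 100% of values (tolerance 0.01). A count of 0 allows 3 reads, for counting error only. Genes with a mean of at least 10 were fitted with limma 3.58.1 (R 4.3.3) on log2(value + 1) as 6 group means, with robust variance moderation and a trend, in 9 two-sided comparisons. Alternatives were no filter, a pseudocount of 5, TMM scaling, the compared groups alone, a replicate block, edgeR 4.0.16 and DESeq2 1.42.0 on recovered reads, and left-out libraries.

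Named are all members, up to 4 called genes per list and comparison with a mean of at least 50, and 5 pattern neighbours each of apoeb and apoa4a. Genes named for their level in 1 library, and hnf4a, lcat and mttp, whose means are under 50, were chosen after their values were seen. So were the called genes named from the Sertoli cell, germ cell and enterocyte lists, without that limit on mean or number. The values of 1 regulator are not reported here. The members and the 16 lists were chosen with earlier results of these data known. Gene lengths, coordinates and sequences are not used here, so levels are not compared between genes.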

Additional observations from a re-analysis of the deposited data

Results flagged for a closer look

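With 17 and with 16 libraries the interaction of lineage and PFOS at 0.02 mg/L passed its own limma test for 1 member each. For apoeb it was 2.78 on the log2 scale with 17 libraries (limma, adjusted p = 0.0200), with a control lineage difference of -2.18 and a BPA lineage difference of 0.60. Over its alternatives the adjusted p ran from 0.0130 to 0.272. For apoea it was -2.07 with 16 libraries (limma, adjusted p = 0.0253), where the control lineage difference was 1.27. From 18 libraries without unexposed control lineage replicate 1 alone the apoea value was again -2.07 (limma, adjusted p = 0.142). The fits with 17 and with 16 libraries both kept unexposed control lineage replicates 2 and 3, which led exocrine pancreas and kidney tubule markers. With 17 libraries replicate 1, which led enterocyte markers, was kept too. Replicate 3, kept in both fits, had the next highest enterocyte sum, at 9311 normalized reads.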

How the results depend on the processing

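In the 5 comparisons that use the unexposed control lineage, of 595 member differences under an alternative, 546 kept direction and side of the threshold, 25 came past it, 4 lost it and 20 reversed. DESeq2 gave no adjusted p for 4 of the 7 members in each comparison, and these were counted as not past the threshold. At 0.002 mg/L in the control lineage the count of members called was 1 and became 0 with 16 libraries, 2 with a pseudocount of 5, 7 with edgeR, 3 with DESeq2, 0 with the compared groups alone (apoeb adjusted p = 0.374) and 0 to 3 with 1 replicate left out (0 without unexposed control replicate 1 or 3, 2 without unexposed replicate 2, 3 without replicate 1 at 0.002 mg/L). At 0.02 mg/L it was 0 and became 2 with 17 libraries, 2 with DESeq2 and 1 with the compared groups alone. Between the lineages without PFOS it was 0 and became 1 with 17 libraries, with DESeq2 and with the compared groups alone. At 0.002 mg/L between the lineages it was 0, and 0 to 1 with 1 replicate left out. For the interaction at 0.002 mg/L it was 0, became 1 with DESeq2, and was 0 to 1 with 1 replicate left out. Both values of 1 came without control lineage replicate 1 at 0.002 mg/L. For the interaction at 0.02 mg/L it was 0 and became 1 with 17 libraries, 16 libraries, DESeq2 and the compared groups alone. The cause was not tested.

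In the other 4 comparisons, where no member passed with 18 libraries, 26 of 413 member differences changed sign and 1 passed the threshold, while apoeb in the BPA lineage at 0.02 mg/L stayed positive. In the 5 comparisons with the unexposed control lineage the reversed values came without its replicate 1, and are given with 16 libraries, followed by the lowest and highest value with 1 replicate left out of 18. For apoea they were 0.88, with -3.93 to 0.82 (control lineage, 0.002 mg/L), 1.27, with -3.49 to 1.27 (0.02 mg/L), 1.29, with -3.46 to 1.29 (lineages without PFOS), -1.43, with -1.37 to 3.38 (interaction at 0.002 mg/L) and -2.07, with -2.07 to 2.68 (interaction at 0.02 mg/L). For apoc2 they were 0.051, with -4.49 to 0.051 (control lineage, 0.02 mg/L), 0.45, with -4.09 to 0.45 (lineages without PFOS) and -0.60, with -0.60 to 3.94 (interaction at 0.02 mg/L), and for apoba -0.18, with -0.18 to 1.26 (interaction at 0.02 mg/L). The interaction at 0.002 mg/L ran from -0.27 to 4.82 for apoa4a and from -0.21 to 3.79 for apoa1b with 1 replicate left out.

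Counts over all genes moved too. At 0.002 mg/L in the control lineage 1476 genes passed with 18 libraries and 0 to 5527 under alternatives, at 0.02 mg/L 13 and 1 to 2409, between the lineages without PFOS 4 and 0 to 1927, for the interaction at 0.002 mg/L 0 and 0 to 2094, and at 0.02 mg/L 261 and 0 to 2674. In the BPA lineage the count was 0 at both doses, with up to 10 and 144 under DESeq2. Between the lineages at 0.002 mg/L it was 0 with up to 992, and at 0.02 mg/L 3 with 0 to 30. The replicate numbers did not pair the libraries (same-number correlations of -0.200 to 0.306, 7 of 45 above 0.1), and the replicate block changed no member call (apoeb at 0.002 mg/L, adjusted p = 0.0264). Members under about 10 reads in a library, chiefly apoc2 and apoa2, are limited by counting error.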
